A study of Mus musculus with 6 samples.

Results

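The iron uptake, storage and export genes are 10 genes chosen by name: Cybrd1, Slc11a2, Slc40a1, Heph, Fth1, Ftl1, Tfrc, Hmox1, Aco1 and Ireb2. Every probe set that the platform annotation gives to 1 of these symbols alone was taken, which made 22 of the 45101 probe sets on the array and covered 9 of the 10 genes. Ftl1, the ferritin light chain gene, had 3 probe sets that all carry other symbols too, so no value is given for it. The samples were epithelial cells of jejunal crypts from 3 Sox9-deficient mice (KO 1 to KO 3) and 3 wild-type littermates (WT 1 to WT 3), all C57BL/6 and 3 months old, with 1 single-colour Affymetrix array for each mouse. Neither the allele behind the deficiency nor the cells in which it acts is named in the labels. The study asked which genes Sox9, a transcription factor of the crypt base, regulates. Values are log2 GCRMA intensities.

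Dietary iron enters the enterocyte of the small intestine at its brush border and leaves at the basolateral side. The ferrireductase Cybrd1 reduces iron and the transporter Slc11a2 (DMT1) imports it. Ferritin, a shell of Fth1 and Ftl1 chains, stores it, and ferroportin (Slc40a1) exports it with the ferroxidase hephaestin (Heph). Dividing crypt cells take up transferrin-bound iron through Tfrc. Inside the cell the iron regulatory proteins Aco1 (IRP1) and Ireb2 (IRP2) bind stem-loops in the mRNAs of ferritin, Tfrc, Slc11a2 and Slc40a1, which blocks translation of some and stabilises others. Hypoxia factors add transcriptional control of Cybrd1, Slc11a2, Slc40a1 and Tfrc.

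The upstream sequence of Cybrd1 is shown because it held the only member probe set whose groups did not overlap. That of Tfrc is shown because it was the only member window with ACGTG, a spelling of the hypoxia core. They are the 250 bases before the annotated start in RefSeq's table for GRCm38.p6, which held 8 windows of 6 member genes. The hypoxia core was searched only as ACGTG and the SOX core only as AACAAT, both on either strand. Other spellings of either core were not searched, and the hypoxia spelling GCGTG can be read in both windows printed here. Capitals mark ACGTG.
Cybrd1, chr2:71117804-71118053, plus strand: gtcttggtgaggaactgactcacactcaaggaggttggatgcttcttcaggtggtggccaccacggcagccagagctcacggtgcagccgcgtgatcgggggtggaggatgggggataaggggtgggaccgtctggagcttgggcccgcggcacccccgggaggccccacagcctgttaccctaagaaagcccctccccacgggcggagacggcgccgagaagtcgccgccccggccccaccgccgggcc
Tfrc, chr16:32608872-32609121, plus strand: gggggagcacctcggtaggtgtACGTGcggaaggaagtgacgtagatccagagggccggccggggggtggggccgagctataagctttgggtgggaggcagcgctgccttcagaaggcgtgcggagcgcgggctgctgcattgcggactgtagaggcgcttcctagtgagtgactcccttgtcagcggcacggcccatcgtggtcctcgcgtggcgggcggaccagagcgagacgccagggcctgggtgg
The Tfrc window held ACGTG once, 228 bases before this start, and lay before 1 of 2 annotated Tfrc starts. ACGTG was found in 1 of 8 member windows and in 16.6% of all 32851 windows of this length. AACAAT was found in 0 of 8 member windows and in 9.42% of all windows. A match is a match of letters only, and its absence says only that these letters are not in this window.

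Markers and controls described the samples as follows. One Sox9 probe set of 3 was at the floor in every mutant (KO 2.42 to 2.75, WT 5.84 to 7.61; limma adjusted p = 0.188), a second read 5.33 to 6.34 in KO against 2.68 to 6.23 in WT, and the last was under the filter. All 7 epithelial and all 5 crypt markers were above a mean of 4. The summed linear intensity of the crypt markers was 76736 to 99584 in KO and 123270 to 136583 in WT, without overlap. Most of that sum was the Paneth cell gene Lyz1, which read 15.63 to 16.07 in KO and 16.57 to 16.65 in WT (difference -0.75, limma adjusted p = 0.914). The crypt markers did not move together, and 3 of the 5 had a positive difference (median 0.079). Ascl2 differed by 0.97 with all KO arrays above all WT arrays (0.34 without WT 2), and Olfm4 by -0.20. Above 4 as well were 9 of 9 measured villus enterocyte markers. Their summed linear intensity was 276336 to 347427 in KO and 227168 to 322190 in WT, lowest on WT 1. Of the 9, 6 had a positive difference (median 0.050), or 3 without WT 1 (median -0.068). Apoa4 (0.82, all KO arrays above all WT arrays) and Alpi (0.95, groups overlapping) had an unadjusted limma p under 0.05, and 0 of the 9 passed. All 8 markers of fibroblasts and smooth muscle and all 5 of endothelium were under 4 on every array. The 7 measured lymphocyte markers were all tested and all had a positive difference (median 1.38, or 0.43 without WT 1), and 0 passed. Their summed intensity was 13493 to 61759 in KO and 887 to 21013 in WT, lowest on WT 1. Y-linked probe sets averaged 7.59 (WT 1) and 8.19 (WT 2) in a pair of controls and 2.64 to 2.74 on the other 4 arrays. Y-linked signal and group were thus largely aligned, and WT 3 was the only control without it. With a model term for Y-linked signal, a group difference therefore rests mostly on WT 3 as the control. The difference between the 3' and 5' Gapdh control probe sets was largest on WT 3 (1.75, against 0.37 to 0.91 elsewhere).

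Across the iron genes, no probe set passed the test between Sox9-deficient and control crypts. Of the 19 member probe sets that are not array controls, 13, from 7 genes, had a mean of at least 4 and were tested with limma over 18108 probe sets; 0 passed an adjusted p of 0.05, against 0.0110% of all probe sets tested. At an unadjusted p under 0.05 the count was also 0 of 13, against 3.62% of all. The groups did not overlap in 0 of the 13, against 9.12% of all. The adjusted p was 0.999 for each of the 13. The median difference was 0.10 (8 positive, 5 negative), beside 0.03 over all probe sets tested. The 95% interval lay within 1 log2 unit of 0, a doubling or halving, in 8 of the 13 and in 65.2% of all probe sets. The remaining 5 have wider intervals, and for them a change of that size cannot be set aside at 3 mice a group.

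**Figure D1:**
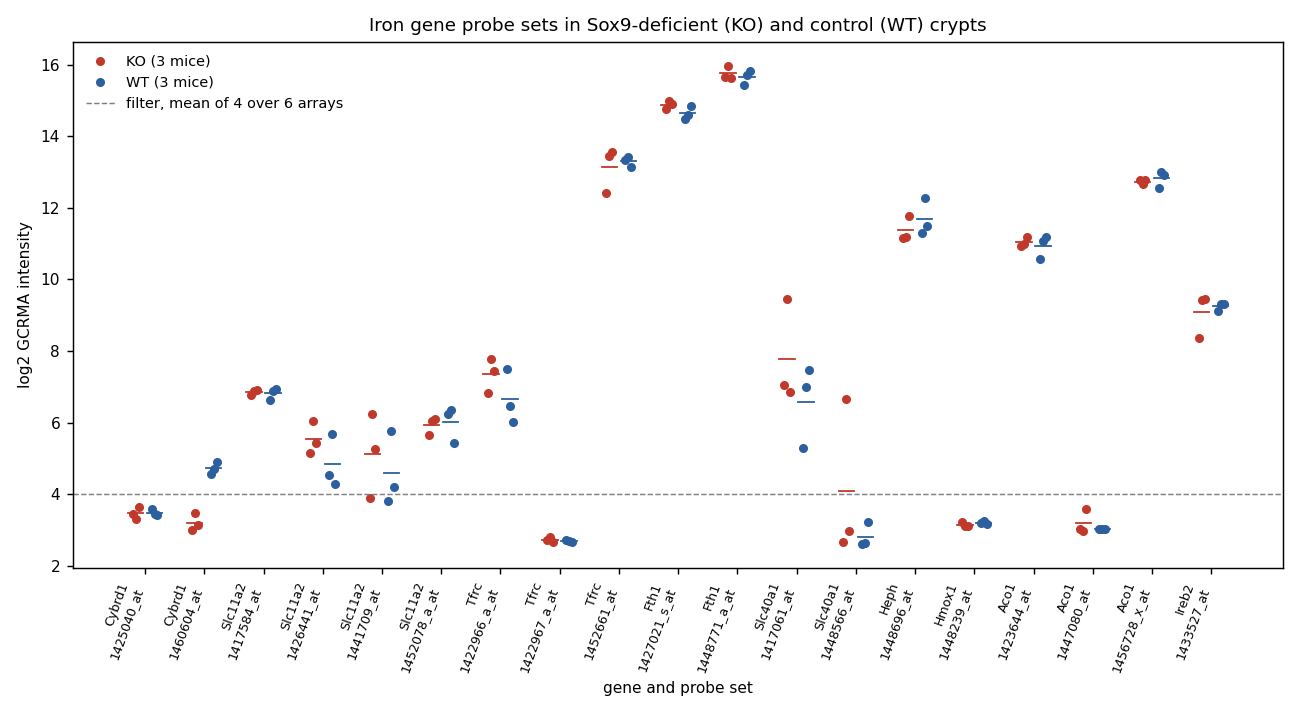
Log2 GCRMA intensity (vertical axis) of the 19 member probe sets that are not array controls, with 1 point for each mouse and a bar for the group mean (KO red, WT blue); the dashed line is the filter at 4. Cybrd1 1460604_at is the one probe set with separate groups, and Slc40a1 shows a single high mouse, KO 2.

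Cybrd1, the brush border ferrireductase, was the one member with separate groups, on a dim probe set. Probe set 1460604_at read 3.02, 3.47 and 3.13 in KO (mice 1, 2 and 3, the order used throughout) and 4.56, 4.71 and 4.91 in WT. The highest KO value was below the lowest WT value. Groups were separate in this way in 1 of the 19 member probe sets, and in 5.14% of all 45037 probe sets that are not controls. The member count is near the share of the whole array. The KO mean of 3.21 ± 0.24 and the WT mean of 4.73 ± 0.17 (SD over 3 mice) differed by -1.52; no fold is given, because the KO values lay near the floor. The exact two-sided permutation p was 0.1, the smallest that 3 mice against 3 allow. With a mean of 3.97 the probe set fell just under the filter and was not tested with the others. Without the filter limma gave an adjusted p of 0.708 (95% interval -1.92 to -1.12), and with the filter at a mean of 3.5 an adjusted p of 0.173 (-1.99 to -1.05). The filter at 3.5 was chosen after seeing where the probe set lay, and the probe set passed it only through the WT group, so this p and interval are a description and no support.

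The Cybrd1 groups did not overlap, so leaving out an array could not change the sign, and the difference stayed between -1.65 and -1.43. WT 3 had the highest value. It was the only control without Y-linked signal and the array with the largest Gapdh 3' minus 5' difference. Among arrays without Y-linked signal the comparison thus rests on WT 3 alone, at 4.91 against 3.02 to 3.47 in KO. With 1 such control, the part of Y-linked signal in the difference was not tested. The KO arrays sat close to the column medians of 2.91 to 2.99, where GCRMA compresses differences. The other Cybrd1 probe set, 1425040_at, read 3.44, 3.30 and 3.65 in KO and 3.59, 3.44 and 3.41 in WT, a difference of -0.015 with overlapping groups. The separation therefore rests on 1 of 2 probe sets, both dim in these jejunal crypts. In bulk RNA, fewer cells of a type and less RNA per cell cannot be told apart.

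Slc11a2, the brush border and endosomal iron importer, had 4 tested probe sets that behaved differently. The gene gives mRNAs with different 3' ends, one with an iron-responsive stem-loop and one without. Which probe set reads which end is stated in none of the sources used here. Probe set 1417584_at was flat, at 6.77, 6.88 and 6.90 in KO and 6.64, 6.88 and 6.94 in WT (difference 0.030, 95% interval -0.38 to 0.44). Probe set 1426441_at, which had the smallest p of the 13 tested, read 5.16, 6.04 and 5.43 in KO and 4.55, 5.70 and 4.29 in WT.

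KO 2 and WT 2 were the highest of their groups on 1426441_at. Its difference of 0.70 ± 0.42 (SE; interval -0.31 to 1.71) did not pass (limma adjusted p = 0.999; exact two-sided permutation p = 0.3). It was 1.31 with Y-linked signal as a model term and 0.43 with the Gapdh 3' minus 5' value as one. The same 2 arrays stood highest on 1441709_at, at 6.24 (KO 2) and 5.76 (WT 2), with the other 4 between 3.83 and 5.26; its difference was 0.53 with KO 2 and -0.019 without it. Probe set 1452078_a_at read 5.65 to 6.11 in KO and 5.44 to 6.35 in WT (difference -0.073, interval -0.78 to 0.63). On each of the 4 the groups overlapped.

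The probe sets most like 1426441_at over the 6 arrays were those of Cbr1 (Pearson r = 0.977), a carbonyl reductase gene, Mios (0.971) and Hectd3 (0.970). They are the 3 highest of the tested probe sets with 1 symbol, so these r describe 6 arrays and carry no p. Like Slc11a2 they were highest on KO 2 (Cbr1 12.05, Mios 6.86, Hectd3 5.81) and lowest on WT 3 (11.37, 5.49 and 5.11).

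Tfrc, the transferrin receptor of dividing cells, was bright on probe set 1452661_at. The values were 12.40, 13.44 and 13.56 in KO and 13.34, 13.42 and 13.13 in WT. KO 1 stood below the other 5 arrays. The difference of -0.16 ± 0.33 (SE; interval -0.96 to 0.63) turned to 0.21 without KO 1. Probe set 1422966_a_at gave the opposite sign, at 6.83, 7.77 and 7.45 in KO and 7.51, 6.47 and 6.01 in WT (difference 0.69 ± 0.43 SE, interval -0.35 to 1.73). Here WT 3 was lowest and WT 1 lay among the mutants.

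The array also carries Tfrc as an internal control read at 3 points along the transcript. The 3' control probe set read 5.53, 6.79 and 6.22 in KO and 6.26, 5.56 and 5.13 in WT. It ranked WT 3 lowest and KO 2 highest, as 1422966_a_at did (difference 0.53, exact two-sided permutation p = 0.5). WT 3 is also the array with the largest Gapdh 3' minus 5' difference. When limma modelled that difference, the 1422966_a_at value was 0.32 instead of 0.69, and with Y-linked signal as a model term the value was 1.26. Both terms rest mostly on WT 3, so they cannot be told apart from that mouse, and no cause was tested. The middle and 5' control probe sets were between 2.42 and 3.06 on all 6 arrays, and so was the Tfrc probe set 1422967_a_at (2.66 to 2.80). Those probe sets hold no Tfrc signal above the floor, while 1452661_at does.

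**Figure D2:**
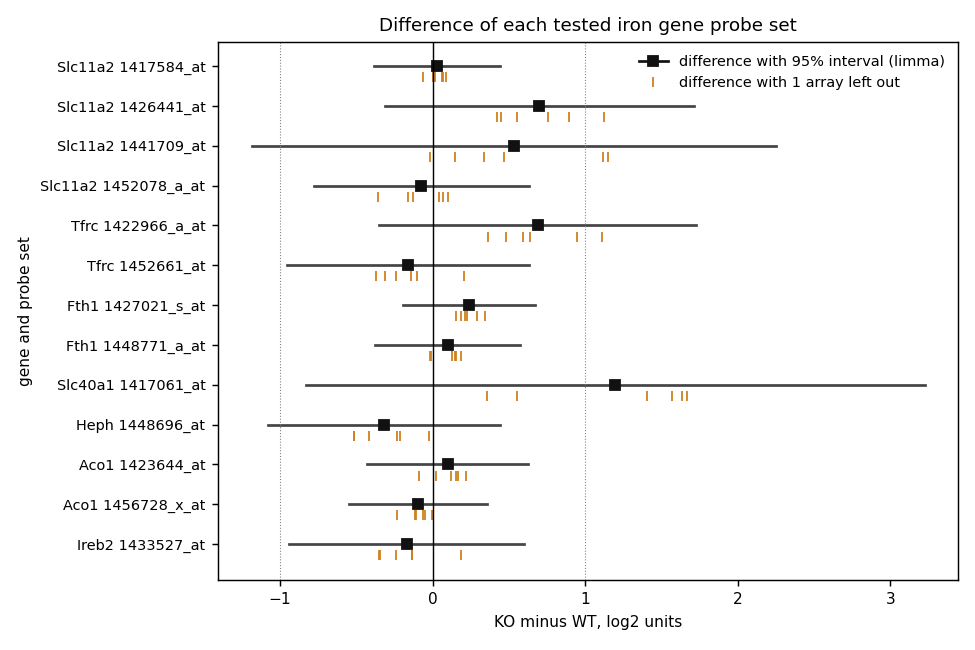
Difference KO minus WT in log2 units (horizontal axis) of the 13 tested member probe sets, as squares with 95% intervals from limma; orange ticks are the difference with each of the 6 arrays left out in turn, and dotted lines mark 1 log2 unit. All 13 intervals include 0, and the widest is that of Slc40a1 (-0.83 to 3.23).

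Fth1, the ferritin heavy chain with ferroxidase activity, was near the top of the array's range and varied little. Probe set 1427021_s_at read 14.77, 14.98 and 14.90 in KO and 14.48, 14.60 and 14.85 in WT. The difference was 0.24 ± 0.18 (SE; interval -0.20 to 0.67) and it stayed positive with each array left out (0.15 to 0.34), but it was 0.033 with Y-linked signal as a model term. Probe set 1448771_a_at read 15.65, 15.97 and 15.63 in KO and 15.42, 15.71 and 15.82 in WT, a difference of 0.098 (interval -0.38 to 0.57). WT 1 was lowest and KO 2 highest on both. The upper ends of both intervals correspond to at most a 1.59-fold higher Fth1 signal in the mutants. The highest value on an array was 16.48 to 16.96, and whether Fth1 was compressed near it was not tested. The s in the name of 1427021_s_at marks probes that match transcripts of more than 1 gene, so on that probe set signal from related ferritin copies cannot be told apart.

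Slc40a1, ferroportin, the only known cellular iron exporter, differed most between single mice. Probe set 1417061_at read 7.04, 9.46 and 6.85 in KO and 5.30, 7.01 and 7.46 in WT. KO 2 stood highest and WT 1 lowest, while the other 4 lay between 6.85 and 7.46. The range over 6 arrays, 4.17, was reached by 1.04% of all probe sets tested. The difference of 1.197 ± 0.85 (SE; interval -0.83 to 3.23) became 0.36 without KO 2 and 0.55 without WT 1. It was 0.42 with Y-linked signal as a model term and 1.82 with array weights. The second probe set, 1448566_at, was at 6.65 on KO 2 and at 2.61 to 3.23 on the other 5 arrays. Both probe sets therefore showed the same single mouse as high, and no difference between the groups passed.

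Macrophages of the gut wall also make ferroportin, so their markers stand beside this result. Of 12 macrophage markers 6 had a mean of at least 4, and Cd163, Marco, Spic and Vsig4 were under 4 on every array. Summed linear intensity over the list was 7884 to 10420 in KO and 16729 to 22686 in WT, mostly Lyz2, whose probes may also read the Paneth cell gene Lyz1. Without Lyz2 the sum was 365 to 2318 in KO and 79 to 705 in WT. It was lowest on WT 1 (79), where Slc40a1 was lowest too. On KO 2, the array of highest Slc40a1, it was 365, below KO 1, KO 3, WT 2 and WT 3. Lymphocyte markers, too, were lowest on WT 1 (887) and were 24831 on KO 2, between KO 3 and KO 1. Villus enterocyte markers were lowest on WT 1 as well (227168), and their sum on KO 2 (276336) was the lowest of the KO arrays. The part of any of these cell types in the Slc40a1 values was not tested. The complement gene C1qa read 6.03 on KO 2 and 2.23 on WT 1.

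**Figure D3:**
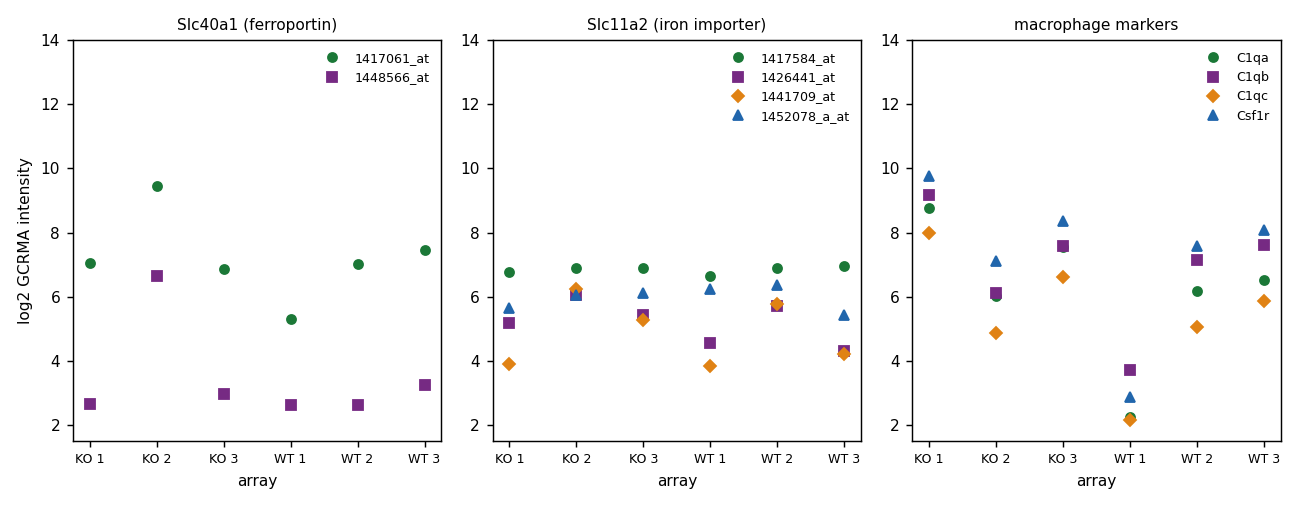
Log2 GCRMA intensity (vertical axis) on each array (horizontal axis) for the 2 Slc40a1 probe sets, the 4 Slc11a2 probe sets and 4 macrophage markers. KO 2 is highest for both Slc40a1 probe sets and WT 1 is lowest for the 4 macrophage markers (2.15 to 3.72).

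Heph, the membrane ferroxidase that works with ferroportin, read 11.15, 11.20 and 11.76 in KO and 11.29, 12.28 and 11.50 in WT. WT 2 stood above all other arrays. The difference of -0.32 ± 0.32 (SE; interval -1.08 to 0.44) became -0.025 without WT 2 and -0.079 with Y-linked signal as a model term.

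Hmox1, the inducible haem oxygenase that frees iron from haem, gave no signal above the floor. Its single probe set read 3.22, 3.13 and 3.11 in KO and 3.20, 3.26 and 3.18 in WT, under the filter, where GCRMA compresses differences. Hmox2, the constitutive haem oxygenase, was measured and had means of 10.4 ± 0.27 in KO and 10.2 ± 0.07 in WT (SD over 3 mice), with a difference of 0.20 (limma adjusted p = 0.999).

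Neither iron regulatory protein gene differed between the groups by more than the spread between mice. Aco1, which is a cytosolic aconitase when it holds an iron-sulphur cluster, read 10.94, 11.00 and 11.19 in KO and 10.57, 11.08 and 11.19 in WT on probe set 1423644_at (difference 0.098, interval -0.43 to 0.63). On 1456728_x_at it read 12.77, 12.66 and 12.76 in KO and 12.55, 13.01 and 12.92 in WT (difference -0.095, interval -0.55 to 0.36). WT 1 was lowest on both. The last Aco1 probe set, 1447080_at, was under the filter (2.96 to 3.60). Ireb2, which is degraded when iron is plentiful, read 8.37, 9.44 and 9.44 in KO and 9.12, 9.32 and 9.32 in WT. KO 1 stood alone below the rest, as it did for Tfrc 1452661_at. The Ireb2 difference of -0.17 ± 0.32 (SE; interval -0.94 to 0.60) became 0.19 without KO 1. The mRNA level says nothing of the amount or the RNA binding of these proteins, which iron sets after transcription.

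Among the 13 tested probe sets, KO 2 was the highest array in 6 and WT 1 the lowest in 7. Over all probe sets tested these shares were 13.5% and 11.7%. The probe sets of a gene share its RNA, and the 6 come from 4 genes (Slc11a2, Tfrc, Fth1 and Slc40a1), so the counts are a description of 2 mice. The sign of the difference was kept with each array left out in 6 of the 13, against 48.6% of all.

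The other genes of iron and haem handling gave the same count of calls. Of 102 genes in 7 lists, 95 were on the array under 1 symbol and 77 were tested by their brightest probe set. Of these, 0 were called higher and 0 lower by limma over all probe sets (0.0110% of all were called), 2 had an unadjusted p under 0.05 (3.62% of all) and 6 had groups that did not overlap (7.79%, against 9.12% of all).

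Both genes with an unadjusted p under 0.05 encode carriers, from a list in which 10 of 19 genes were tested (median -0.016, 5 positive). Slc39a8, a ZIP carrier of zinc, manganese and iron, read 9.49, 8.76 and 9.12 in KO and 8.29, 8.56 and 8.09 in WT. All KO arrays lay above all WT arrays (difference 0.81 ± 0.25 SE, interval 0.21 to 1.40, limma adjusted p = 0.999). Slc46a1, the intestinal folate carrier that was also described as a haem carrier, read 9.95, 10.33 and 8.98 in KO and 7.48, 8.28 and 9.16 in WT. Its groups overlapped through KO 3 and WT 3 (difference 1.45 ± 0.51 SE, interval 0.22 to 2.68, limma adjusted p = 0.999). Cyb561, a relative of Cybrd1, differed by -0.46 and the reductase gene Steap1 by 0.58, or -0.055 without WT 3.

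Of 8 tested genes of iron chaperones and ferritin turnover (10 in the list), 0 passed, and the median was -0.034. Ncoa4, which takes ferritin to the lysosome, differed by 0.25 (interval -0.31 to 0.80). Pcbp4, of the family of iron-binding poly(C) proteins, differed by 1.07 and spread from 5.73 on WT 2 to 8.40 on KO 1; without WT 2 the difference was 0.55. App, which can stabilise ferroportin at the cell surface, differed by -0.47 and the prion protein gene Prnp by -0.27.

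In the hepcidin axis 8 of 14 genes were tested, 0 passed, and the median was 0.072. Bmp2, a ligand that induces hepcidin in the liver, differed by 0.67 (interval -0.098 to 1.44). Smad5 differed by 0.26, the BMP receptor gene Acvr1 by -0.13 with separate groups (KO 7.98 to 8.02, WT 8.07 to 8.19), and Neo1 by 0.16.

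Haem synthesis and breakdown had 12 of 14 genes tested, 0 past the threshold and a median of -0.026. The mitochondrial transporter gene Abcb10 differed by -0.37, the ferrochelatase gene Fech by 0.23 and Urod by 0.23. KO 1 was the highest array for Fech, Hmox2 and Urod; without it their differences were 0.068, 0.048 and -0.053.

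Mitochondrial iron and iron-sulphur cluster genes had 15 of 19 tested and 0 past the threshold, with 12 of 15 positive and a median of 0.13, beside 0.03 over all probe sets. Without KO 1 the count was 8 of 15 and the median 0.045, and without WT 3 they were 10 and 0.048. The mitochondrial iron importer gene Slc25a28 read 9.24, 9.20 and 9.09 in KO and 8.92 to 9.001 in WT (difference 0.21, interval -0.16 to 0.59). Nfs1, the cysteine desulphurase gene, and Isca1, which acts in cluster assembly, had separate groups as well (differences 0.26 and 0.20). Without KO 1 the Nfs1 difference was 0.094. Groups were separate in 3 of the 15 genes, against 7.79% over the 7 lists, these 3 included, and 9.12% of all probe sets tested. Isca1 was named after its values were seen. Ciao1 differed by 0.25 and the co-chaperone gene Hscb by 0.47, or 0.045 without KO 1.

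Hypoxia factors and their targets had 14 of 15 genes tested, 0 past the threshold and a median of -0.023. Hif1a read 10.06, 10.31 and 10.51 in KO and 10.56, 10.87 and 10.55 in WT. All KO arrays lay below all WT arrays by a narrow margin (difference -0.37 ± 0.20 SE, interval -0.85 to 0.11, limma adjusted p = 0.999). The glucose transporter gene Slc2a1 differed by -0.50, Ankrd37 by 0.36 and the carbonic anhydrase gene Car9 by 0.21. Epas1, another hypoxia factor gene, was named after its values were seen. It read 7.7, 10.6 and 10.7 in KO and 6.1, 10.2 and 10.6 in WT, lowest on WT 1. Its difference of 0.68 had a wide interval (-2.57 to 3.94).

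The Nrf2 list, whose regulator also acts on Hmox1 and ferritin genes, had 10 of 11 genes tested, 0 past the threshold and a median of -0.021. The quinone reductase gene Nqo1 differed by -0.38, Nfe2l2 itself by -0.18, Gsr by -0.18 and Srxn1 by -0.094, each with overlapping groups. Without WT 2 the Gsr and Srxn1 differences were 0.085 and 0.28.

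**Figure D4:**
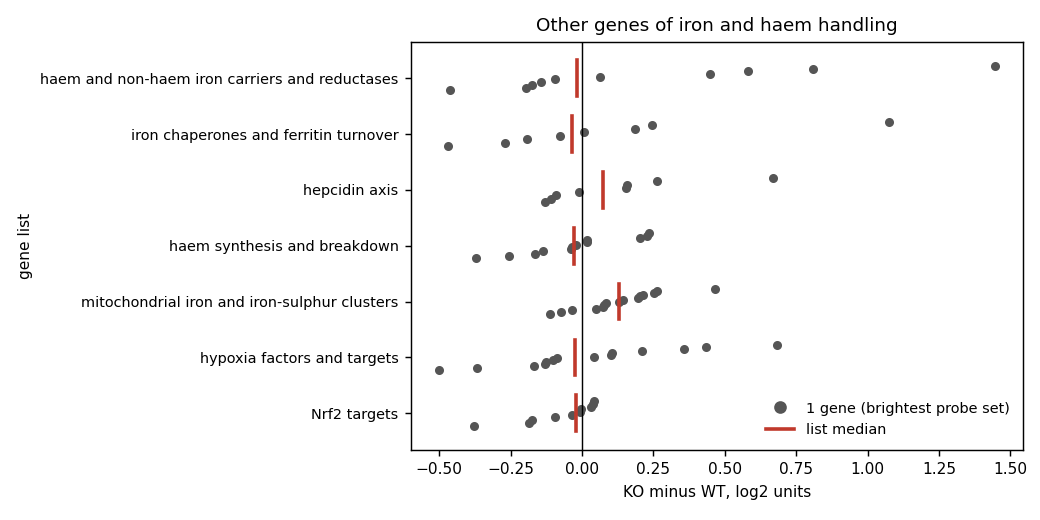
Difference KO minus WT in log2 units (horizontal axis) for each of the 77 tested genes in the 7 lists, 1 point for each gene, with the list median as a red bar. List medians lie between -0.034 and 0.13, and the highest single gene is Slc46a1 at 1.45.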

How the data were processed

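The deposited table holds log2 intensities, which the authors made with GCRMA per the submitters' processing notes; limma is named there too, and its version, settings and build are given in none of the sources used here. GCRMA corrects background by probe sequence, which compresses values near its floor. All 6 columns are samples of this series (0 others). Array controls (64 probe sets) were left out of the fit, so 45037 remained; the 3 Tfrc controls are described only. Names came from the platform annotation (34945 probe sets with 1 symbol, 932 with several, 9160 with none), of which 34741 matched RefSeq gene identifiers with 0 symbols changed.

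A mean of 4 or more kept 18108 probe sets, to which limma 3.58.1 (R 4.3.3; lmFit and eBayes, 2 groups, two-sided) was applied, with Benjamini-Hochberg adjustment over all of them, a threshold of 0.05 and 95% intervals. Arrays carry no read depth, and 3 per group limits the precision. Exact permutation tests used all 20 assignments of mice. The fit was tested on 5 simulated sets of 18108 probe sets with 200 changed: in this comparison changes of 1, 2 and 4 log2 units were recovered in 17.1%, 57.1% and 93.2%, with 5.52% of calls false.

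Named are all member probe sets, up to 4 genes of smallest p in each list, the 3 probe sets most like the member of smallest p, and Sox9; exceptions are marked. Members, lists and alternatives were chosen with earlier results of these data known. The alternatives tried were the replicate number as a block, a filter at 6 or none, array weights, quantile normalization or median centring, a robust trended prior, gene means, terms for Y-linked signal and for Gapdh 3' minus 5', each array left out and, added later, a filter at 3.5.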

Additional observations from a re-analysis of the deposited data

How the results depend on the processing

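The count of iron gene probe sets past the adjusted threshold in limma was 0 under all 17 alternatives, with 0 to 1 of them at an unadjusted p under 0.05, and the count over the 7 lists was 0 as well (1 to 4 unadjusted). The lowest adjusted p of the 13 tested here was 0.710 over the alternatives; Cybrd1 1460604_at, which enters only with no filter or the filter at 3.5, had 0.708 and 0.173. The count over all probe sets, 2 here, was 0 with a replicate block, no filter, a Y-linked term or a Gapdh 3' minus 5' term, 1 with the filter at 6, 4 under quantile normalization, 7 with gene means, 11 with array weights, and 0 to 16 with 1 array left out (0 without WT 1 or WT 2, 1 without KO 2, 16 without WT 3); the cause was not tested. Deviations from group means correlated at -0.05, -0.29 and 0.03 between same-numbered mice, and at -0.10 to 0.16 between the others. These values show no pairing by replicate number, but at 3 mice a group they cannot exclude it. No member was called with the block or without it.

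Of 212 alternative values for the 13 tested member probe sets, 20 had the opposite sign, in 8 probe sets, none of them called. With a term for Y-linked signal Slc11a2 1417584_at was -0.079, Aco1 1423644_at -0.11, Fth1 1448771_a_at -0.058 and Slc11a2 1452078_a_at 0.49. With array weights Ireb2 was 0.14, Slc11a2 1452078_a_at 0.029 and Tfrc 1452661_at 0.13. With gene means Tfrc was 0.26 and Aco1 0.0017, and under quantile normalization Slc11a2 1417584_at was -0.0027. With 1 array left out, Slc11a2 ran from -0.063 to 0.091 (1417584_at), -0.019 to 1.15 (1441709_at) and -0.36 to 0.098 (1452078_a_at), Aco1 1423644_at from -0.090 to 0.22, Ireb2 from -0.35 to 0.19, Fth1 1448771_a_at from -0.019 to 0.185 and Tfrc 1452661_at from -0.37 to 0.21. Probe sets near the floor (Hmox1, both Cybrd1, 1 of Tfrc, Aco1 and Slc40a1 each) limit what could be seen.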

Other observations

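Further values for iron-handling genes, chosen after they were seen, concern single mice. Hamp2, which encodes a relative of the iron hormone hepcidin, read 6.14 on KO 1 and 3.32 to 3.92 on the other 5 arrays on 1 of its 2 probe sets, and 2.47 to 2.56 on the other; both were under the filter. Slc30a10, a manganese exporter gene, read 6.06 on KO 2 and 3.92 to 4.88 on the other 5 arrays, so KO 2 was its highest array as it was for both Slc40a1 probe sets.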
